A study of Mus musculus with 12 samples.

Results

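Apolipoproteins are the protein coats of the particles that carry fat and cholesterol in blood, and Mttp encodes the microsomal triglyceride transfer protein that loads lipid onto the largest of them. The genes described here are Apoa1, Apoa2, Apoa4, Apoa5, Apob, Apoc1, Apoc2, Apoc3, Apoe and Mttp, 10 genes of a fixed list, out of 55401 in the count table and 13205 with enough counts to be tested. All 10 passed the filter on low counts. They were measured by RNA-seq of liver from female C57BL/6J-background mice aged 15 weeks, in 6 iTgMir483 animals and 6 Control animals, with 1 library per animal. iTgMir483 mice carry a Tet-off Mir483 transgene in the Rosa26 locus that is transcribed unless doxycycline is given. In the adult experiment doxycycline was given in drinking water during pregnancy and then withdrawn, so the transgene was left on from birth. The transgene was activated by removing a Neo cassette with CMV-Cre, which acts in all tissues, so Mir483 was not switched on in liver alone. All 12 samples, controls included, carry a CMVxmiR label, and the labels say no more of the Control genotype than that it is control. The feeding state of the animals at collection was not given.

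The members divide by role. Apob is the backbone of very low density lipoprotein (VLDL), the triglyceride-rich particle that hepatocytes secrete, and Mttp is required for its assembly. Apoa1 and Apoa2 are the main proteins of high density lipoprotein (HDL), which carries cholesterol back to the liver. The small C apolipoproteins and Apoa5 set how fast lipoprotein lipase strips triglyceride from the particles, Apoe binds the receptors that take up the remnants, and Apoa4, which in mice is made in both intestine and liver, is known to rise in fatty liver. Hepatocytes are the main source of nearly all of these proteins in plasma.

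The molecule that was overexpressed is shown first, because its seed (bases 2 to 8, in capitals) is the stretch that pairs with messenger RNAs, and because a single member carries a match to it. Mir483 lies inside Igf2 on the minus strand of chromosome 7 and gives 2 mature products, at chr7:142654932-142654952 and chr7:142654968-142654989 (RefSeq, GRCm38.p6).
miR-483-3p: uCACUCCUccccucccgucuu
miR-483-5p: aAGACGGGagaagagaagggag
The longest annotated 3′ UTR of each member was searched for the 7 bases complementary to each seed, AGGAGTG for the 3p arm and CCCGTCT for the 5p arm. Apoa5, whose annotated 3′ UTR is 1185 bases long, held 1 match to the 3p arm, at bases 207 to 213 of the UTR (chr9:46270941-46270947, plus strand, GRCm38), shown here with the match in capitals.
Apoa5 3′ UTR: gaggtgacAGGAGTGggagatgg
The other 9 members held no match to the 3p arm and none of the 10 held one to the 5p arm. Among 12098 tested genes with an annotated 3′ UTR, 12.6% held a 3p match and 3.26% a 5p match. The members' UTRs ran from 64 bases (Apoa1) to 1201 bases (Mttp), beside a median of 1164 over those genes. The presence of these letters describes the sequence and does not show binding.

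Mir483 itself was at 0 counts in all 6 Control libraries and at 318 to 761 counts in the 6 iTgMir483 libraries, which matches the labels. These are reads of transcripts kept by a poly(A) library, not of the mature microRNA. Libraries held 12244123 to 30431286 counts. Hepatocyte markers were high in every library, with a summed level of 121878 to 167074 CPM (counts scaled to a common library size, with TMM factors) in Control livers and of 73236 to 141191 CPM in iTgMir483 livers. Most of that sum was Alb, and of 7 tested hepatocyte markers Fgb rose (log2 fold change 1.01, edgeR adjusted p 0.00878) and Cps1 fell (-1.21, edgeR adjusted p 0.00476). Of 10 macrophage markers, 9 rose, and their summed level went from 348 to 523 CPM in Control libraries up to 543 to 1566 CPM in iTgMir483 libraries. Of the other marker lists, 3 of 5 bile duct markers and 2 of 7 stellate cell markers rose, and no blood marker of 4 passed. Of 6 adipose markers only Fabp4 had enough counts to be tested, and it rose (log2 fold change 0.95, edgeR adjusted p 0.00918). Adipoq and Cfd were at 0 in all iTgMir483 libraries and reached 0.670 and 1.41 CPM in Control libraries. Lep was at 0 in every library. The part of these marker lists in the results on the members was not tested. These are bulk libraries, so fewer cells of a type and less RNA per cell cannot be told apart.

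Of the 10 members, 1 passed the test between groups and 9 did not. Apoa4 was higher in iTgMir483 livers by 4.40-fold, and no other member differed by as much as 1.5-fold. No member was lower at the adjusted p of edgeR, and Apoc2 alone was lower at an unadjusted one under 0.05. The test was edgeR's quasi-likelihood test with Benjamini-Hochberg adjustment over all genes tested, called at an adjusted p under 0.05, and 18.6% of all tested genes passed it. With a fold over 1.5 as well, 11.1% of genes were changed, 8.41% of genes upwards, and Apoa4 was the single member among them. The members' median log2 fold change was -0.05, beside 0.0058 over all tested genes. Their median change regardless of sign was 0.19 on the log2 scale, against 0.22 for all tested genes. In none of the 10 were the 2 groups of 6 libraries wholly separate, which was the case for 7.92% of tested genes.

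**Figure D1:**
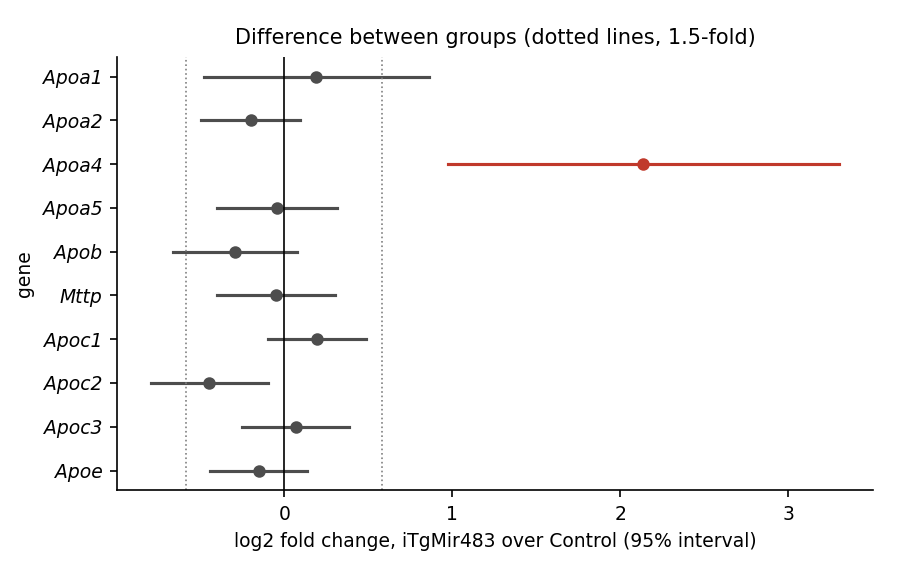
Log2 fold change of each gene in iTgMir483 livers over Control livers (x axis), with the 95% interval derived from the test as a bar and the 1.5-fold limits as dotted lines. The Apoa4 interval, from 0.97 to 3.30, lies wholly above the limit, and the other 9 points lie between -0.45 and 0.20.

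Apoa4 was the member that moved. In Control livers it ran from 317 CPM, with a median of 1010 CPM, to 2639 CPM. In iTgMir483 livers it ran from 848 CPM, with a median of 5229 CPM, to 9673 CPM. Of the 6 iTgMir483 libraries, 5 lay above every Control library, and the sixth, replicate 1, lay inside the Control range. The group means were 1185 ± 817 CPM and 5216 ± 3292 CPM (SD, n = 6 each). The log2 fold change was 2.14 (SE 0.544), with a 95% interval of 1.97-fold to 9.86-fold and an adjusted p of 0.0146. An exact two-sided permutation test over all assignments of the libraries gave p = 0.0173. Apoa4 ranked 61 among the 13205 tested genes by the size of its increase.

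Apoa4 was also the most variable member within groups. Its highest Control library held 8.32 times the level of its lowest, and its highest iTgMir483 library 11.4 times the level of its lowest. The corresponding coefficients of variation were 68.9% and 63.1%, while Apoe varied by 6.41% and 9.14%. Its interval is therefore wide, and when the question was whether the fold exceeds 1.5, edgeR's test against that fold gave an adjusted p of 0.106, so the call of a change over 1.5-fold rests on the estimate and not on that test. Apoa4 kept its call under each of the other 19 alternatives, with a log2 fold change of 1.87 to 2.53. Among markers of intestinal epithelium, the other source of the protein, Sis, Cdx1 and Cdx2 were at 0 in all 12 libraries, and the summed list, nearly all of it Fabp2, was at 57.7 to 136 CPM in Control and 67.5 to 150 CPM in iTgMir483 livers.

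**Figure D2:**
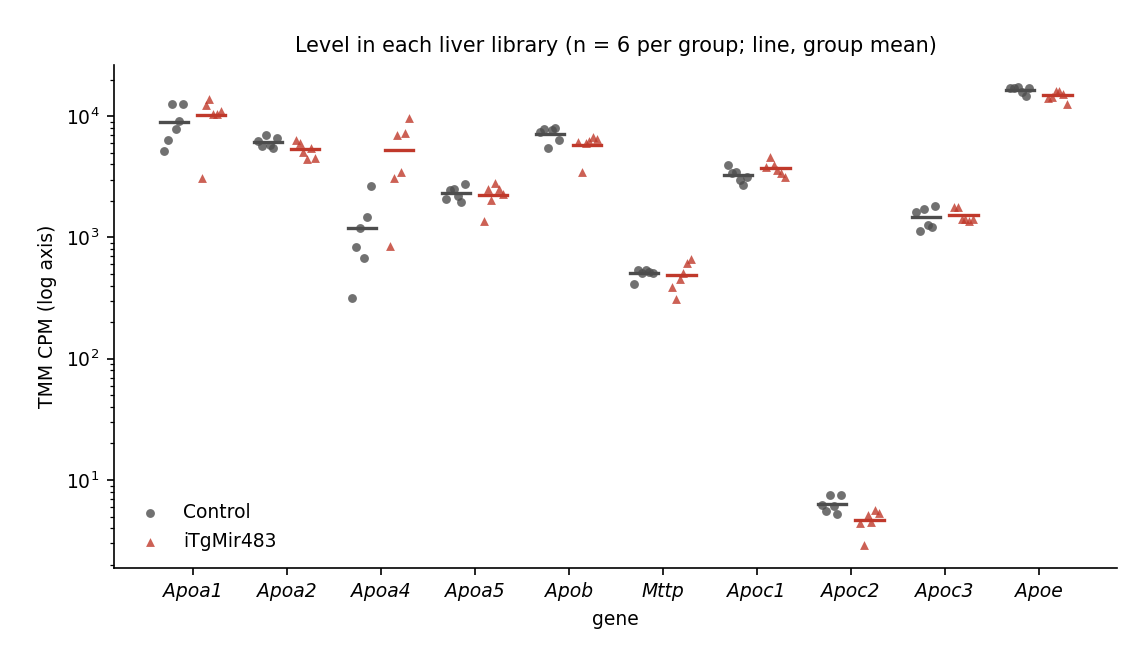
Level of each gene in each library, in CPM on a log axis, with Control libraries as grey circles, iTgMir483 libraries as red triangles and the group mean as a line. Apoa4 is the gene whose groups part most, with 1 iTgMir483 library at 848 CPM inside the Control range, while the groups of Apoc3 and Apoa5 largely overlap.

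Part of Apoa4's exons lies under genes of the opposite strand, Gm10680 (632 shared bases) and Gm47528. Gm10680 had 23 to 2036 counts, which is 0.165% to 1.76% of the Apoa4 count in the same library. Which strand column was counted is not stated, and reads of the overlap cannot be assigned with certainty. The Gm10680 counts are small beside those of Apoa4, but reads left uncounted in shared bases would show in neither gene. How many there were cannot be read from these counts.

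Apoa1, the main HDL protein, is the neighbour of Apoa4 and did not pass. Control livers ran from 5123 CPM through a median of 8509 CPM to 12572 CPM, and iTgMir483 livers from 3102 CPM through 10720 CPM to 13964 CPM. The lowest library of all 12 was iTgMir483 replicate 1, the same animal in which Apoa4 was lowest in its group. The log2 fold change was 0.19 (SE 0.314, edgeR adjusted p 0.710), and its interval reached from 0.717-fold to 1.82-fold, so a change of 1.5-fold lay within it.

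Over the 12 libraries the 2 genes varied together within groups, in iTgMir483 livers through replicate 1, while their ratio differed between groups. Deviations of log2 CPM from the group mean had a Pearson r of 0.85 and a Spearman rho of 0.71 over the 12 libraries, with r = 0.88 among the Control and 0.84 among the iTgMir483 libraries. The iTgMir483 value rests on replicate 1, and among the other libraries of that group Apoa4 did not rise with Apoa1. Replicate 2 held 12381 CPM of Apoa1 and 3066 CPM of Apoa4, and replicate 5 held 10393 CPM and 7255 CPM. Without the 2 libraries farthest from the median of Apoa1 r was 0.51, and without both replicate 1 libraries it was 0.50, so the height of this value rests on them. This is a description of 12 libraries, with no test. The ratio of Apoa4 to Apoa1 counts in the same library, which does not depend on scaling, was -3.13 ± 0.64 in Control and -1.20 ± 0.75 in iTgMir483 livers on the log2 scale (SD, n = 6 each). All 6 iTgMir483 libraries lay above all 6 Control libraries, from 0.248 to 0.876 Apoa4 counts per Apoa1 count against 0.0619 to 0.210. Of all tested genes, 0.462% had a ratio to Apoa1 that was likewise wholly higher in iTgMir483 livers. The iTgMir483 replicate 1 library, inside the Control range by Apoa4 level, was outside it by this ratio. Its Apoa4, at 848 CPM, was below the Control median of 1010 CPM. Its Apoa1 was at 3102 CPM, with the next library of its group at 10387 CPM. The full separation of the groups by this ratio thus depends on that low Apoa1.

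**Figure D3:**
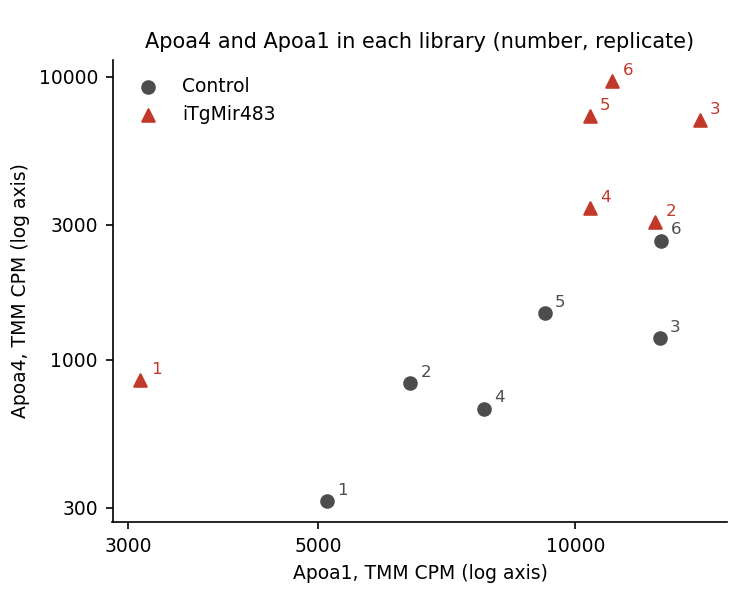
Apoa4 against Apoa1 in each library, both in CPM on log axes, with the replicate number beside each point. Apoa4 rises with Apoa1 among the Control libraries, and among the iTgMir483 libraries only through replicate 1, at 3102 CPM of Apoa1. All 6 iTgMir483 libraries, replicate 1 included, hold more Apoa4 for their Apoa1 than any Control library.

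Apoa2, the second HDL protein, was at 5442 CPM, 6030 CPM and 6935 CPM (lowest, median and highest) in Control livers and at 4396 CPM, 5292 CPM and 6414 CPM in iTgMir483 livers. Of the 6 iTgMir483 libraries, 3 lay below every Control library. The log2 fold change was -0.20 (SE 0.139, edgeR adjusted p 0.336), and the interval, 0.709-fold to 1.07-fold, held no change as large as 1.5-fold.

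Apob, which gives each VLDL particle its single backbone, was at 5472 CPM, 7526 CPM and 7983 CPM in Control livers and at 3460 CPM, 6147 CPM and 6671 CPM in iTgMir483 livers. All 6 iTgMir483 libraries lay below the Control median, but only 1 of them, replicate 2, lay below the whole Control range. The log2 fold change was -0.29 (SE 0.173, edgeR adjusted p 0.258), with an interval of 0.633-fold to 1.06-fold. The direction was the same in each alternative, from -0.36 to -0.18, and none passed.

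Mttp, the partner of Apob in assembly, was at 411 CPM, 517 CPM and 541 CPM in Control livers and at 310 CPM, 478 CPM and 659 CPM in iTgMir483 livers. Its mean hardly moved (log2 fold change -0.05, SE 0.165, edgeR adjusted p 0.865), but its spread was wider in iTgMir483 livers, with 2 libraries above and 2 below the whole Control range and a coefficient of variation of 27.2% against 9.43%. That difference in spread was not tested. Mttp counts per Apob count were 0.0722 in Control and 0.0840 in iTgMir483 livers (means of 6), with overlapping groups.

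Apoc2, the activator that lipoprotein lipase needs, stood nearest to the threshold among the 9. It was at 5.29 CPM, 6.21 CPM and 7.53 CPM in Control livers and at 2.93 CPM, 4.82 CPM and 5.64 CPM in iTgMir483 livers. Of the 6 iTgMir483 libraries, 4 lay below every Control library. The log2 fold change was -0.45 (SE 0.162, edgeR adjusted p 0.0687), and the exact permutation test for this gene alone gave p = 0.0108. DESeq2, run as an alternative, gave it an adjusted p of 0.0388, so the call depends on the tool.

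The level of Apoc2 is uncertain in these files. It had 41 to 180 counts per library, which is a level per kilobase far below that of the other members (given below). Of the 813 bases of its annotated exons, 646 (79.5%) are shared on the same strand with Gm44805, a gene model that spans Apoc2 and Apoc4 and had 0 counts in every library, which leaves 167 bases of its own. How the deposited counting treated reads in shared bases is not stated. Apoc4, the gene beside it, was at 512 ± 87.7 CPM and 403 ± 36.9 CPM, with a log2 fold change of -0.34 and an edgeR adjusted p of 0.0671, and it passed under 4 of 19 alternatives.

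Apoc3, an inhibitor of triglyceride clearance, was at 1130 CPM, 1441 CPM and 1825 CPM in Control livers and at 1372 CPM, 1423 CPM and 1785 CPM in iTgMir483 livers. No iTgMir483 library left the Control range (log2 fold change 0.07, SE 0.148, edgeR adjusted p 0.788). Apoc3 is transcribed from the strand opposite to Apoa1 and Apoa4 and sits between them, so the gene whose level changed and 2 that did not pass are neighbours. Apoa5, the activator of triglyceride clearance and the member with the seed match shown above, was at 1946 CPM, 2339 CPM and 2732 CPM in Control livers and at 1360 CPM, 2407 CPM and 2797 CPM in iTgMir483 livers. Its log2 fold change was -0.04 (SE 0.166, edgeR adjusted p 0.882), with an interval of 0.759-fold to 1.24-fold.

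Apoc1, which slows remnant uptake, was at 2708 CPM, 3285 CPM and 3922 CPM in Control livers and at 3150 CPM, 3686 CPM and 4608 CPM in iTgMir483 livers. Its log2 fold change was 0.20 (SE 0.136, edgeR adjusted p 0.337). Apoe, the ligand of the remnant receptors and the member with the most counts, was at 14611 CPM, 16977 CPM and 17268 CPM in Control livers and at 12630 CPM, 14784 CPM and 16210 CPM in iTgMir483 livers. Its log2 fold change was -0.15 (SE 0.135, edgeR adjusted p 0.460), with 0 of 6 iTgMir483 libraries above the Control median. The exact permutation test for Apoe alone gave p = 0.0411, and that test is not adjusted for the 10 members. Run on each member not given such a value so far, the exact test gave p = 0.0541 for Apob, 0.0779 for Apoa2 and 0.102 for Apoc1. For Apoc3, Mttp, Apoa5 and Apoa1 its p ran from 0.565 to 0.777. Apoe and Apoc1 lie side by side on chromosome 7, and their count ratio went from 5.07 in Control to 3.99 in iTgMir483 livers (means of 6), with 4 of 6 iTgMir483 libraries below all Control libraries.

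In 6 of the 9 members that did not pass, the 95% interval lay wholly within 1.5-fold in either direction. The exceptions were Apoa1, Apob and Apoc2, for which a change of that size was within the interval.

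Per kilobase of annotated exon, which allows levels of different genes to be compared, Apoa2 was the highest in Control livers at 11394 ± 1062 CPM per kb (SD, n = 6). Apoe followed at 7697 ± 494 CPM per kb and Apoa1 at 7236 ± 2519 CPM per kb, and the range of Apoa1 overlapped those of Apoe and Apoa2. Apoc1, whose range overlapped that of Apoa1, stood at 4401 CPM per kb, Apoc3 at 1440, Apoa5 at 922, Apoa4 at 653, Apob at 511 and Mttp at 81.4 CPM per kb. Among these, the range of Apoa4, 175 to 1454 CPM per kb, overlapped those of Apoc3, Apoa5 and Apob. Apoc2 came last at 7.85 CPM per kb, with the limit on its counts given above. In iTgMir483 livers Apoa4 stood at 2874 ± 1814 CPM per kb and had moved from the seventh to the fifth place, above Apoc3 and Apoa5, although its range of 467 to 5329 CPM per kb took in those of both.

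Together the 10 members took 4.29% to 4.77% of all counts in Control libraries and 4.20% to 5.91% in iTgMir483 libraries. Within that total Apoa4 took 0.719% to 4.94% in Control and 2.23% to 18.6% in iTgMir483 libraries.

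Within groups the members did not move as a block. Over the 45 pairs the median Pearson r of log2 CPM deviations was 0.035, with 10 pairs over 0.5 and 6 under -0.5. The highest after Apoa1 with Apoa4 was Apoa2 with Apoc3 (r = 0.76), which was 0.73 without both replicate 1 libraries. Apoa1 with Apoa5 (0.75) and Apoa4 with Apoa5 (0.60) rested on those libraries, and were 0.052 and -0.11 without them. Apoc2 with Mttp (0.68) and Apob with Mttp (0.66) rested on the iTgMir483 libraries (0.88 and 0.82), since among the Control libraries alone they were -0.12 and -0.0013. Without the 2 libraries farthest from the median Apoc2 with Mttp was 0.23. The lowest were Apoc1 with Mttp (-0.81) and Apob with Apoc3 (-0.64). Apoa2, Apoc1 and Apoc3, with 537 to 1014 exon bases, thus lay on one side and Apob and Mttp, with 13934 and 6206, on the other. Between these lengths, r with Mttp was 0.26 for Apoa1 (1236 exon bases), 0.61 for Apoa4 (1815), -0.22 for Apoe (2138) and 0.28 for Apoa5 (2522). These values follow no order of length. Apoc2, with 813 exon bases, did not follow this division by length either. Its r was 0.68 with Mttp and 0.44 with Apob, against -0.39 with Apoc1, -0.067 with Apoa2 and 0.084 with Apoc3. All members were read from the same libraries and share their depth and RNA quality, and these values describe 12 libraries without a test.

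**Figure D4:**
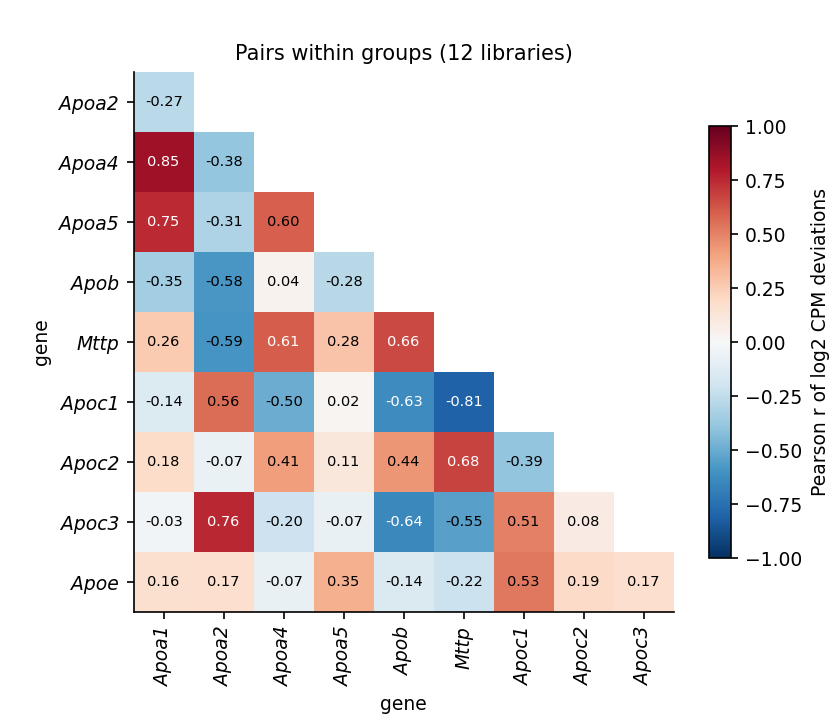
Pearson r between genes, over 12 libraries, of the deviation of log2 CPM from its group mean, coloured from -1 (blue) to 1 (red). Apoa1 with Apoa4 has the highest value (0.85), the high values of Apoa5 (0.60 and 0.75) rest on the replicate 1 libraries, and Apob and Mttp have negative values with Apoa2, Apoc1 and Apoc3.

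For each member, the gene outside the list whose deviations were most like its own was found among all tested genes. For Apoa4 it was Pgm3, an enzyme of UDP-N-acetylglucosamine synthesis, with r = 0.97 over 12 libraries and 0.91 without both replicate 1 libraries. Pgm3 was itself higher in iTgMir483 livers (25.2 and 48.1 CPM, log2 fold change 0.94, edgeR adjusted p 0.0333). For Apob it was Ep400 (r = 0.99), for Apoa2 Ndufs6 (0.96), for Apoa1 Hnrnpa1 (0.95), for Mttp Eif4g3 (0.94), for Apoa5 Polr3d (0.93), for Apoc1 Kremen1 (0.93), for Apoc3 Mrpl36 (0.92), for Apoe Gm16378 (0.90) and for Apoc2 Ccnf (0.90). Without both replicate 1 libraries Hnrnpa1 was at 0.72 and Polr3d at 0.78, so these values rest in part on those libraries. The remaining genes then ran from 0.89 (Gm16378) to 0.99 (Ep400). Each gene was picked as the highest over all other tested genes and carries no test.

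Apoa1, Apoc3, Apoa4 and Apoa5 lie within 43.3 kb of chromosome 9 (chr9:46228580-46271919), and Apoe, Apoc1 and Apoc2 within 27.6 kb of chromosome 7 (chr7:19671579-19699188, both GRCm38). Within 100 kb of the chromosome 9 cluster, the 3 tested coding genes that are not members had edgeR adjusted p of 0.402 to 0.927. Within 100 kb of the chromosome 7 cluster 3 of 9 passed, all higher. They were Relb, a subunit of NF-kB (log2 fold change 1.39, adjusted p 0.00174), Bcam, a laminin receptor (0.95, adjusted p 0.00358), and Cblc, a ubiquitin ligase (0.53, adjusted p 0.0103).

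The rest of lipoprotein metabolism was read from 6 lists of 104 genes, of which 101 were tested and 19 passed, 12 higher and 7 lower. Set beside the 18.6% of all tested genes, that share is near the background, and the values below describe single genes.

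Among 11 other apolipoprotein genes, 2 were higher and 2 lower. Saa1 and Saa2, acute-phase proteins that ride on HDL, ran from 12.1 to 57.0 CPM and from 4.22 to 11.2 CPM in Control livers and from 7.86 to 5166 CPM and from 4.62 to 3214 CPM in iTgMir483 livers. The ranges overlapped, with the lowest iTgMir483 library below all Control libraries for Saa1. The log2 fold changes were 6.07 (adjusted p 0.0143) and 7.04 (adjusted p 0.00932). Both calls were lost with limma-voom, which gave smaller log2 fold changes of 2.79 (adjusted p 0.186) and 3.24 (adjusted p 0.225). They were also lost with a replicate term in the edgeR fit, at 2.20 (adjusted p 0.224) and 2.48 (adjusted p 0.260). Apoh, which binds anionic phospholipid, fell by 0.45 on the log2 scale (2321 ± 213 CPM and 1694 ± 70.2 CPM, adjusted p 0.00987), and its groups were separate. Apoo, a mitochondrial protein despite its name, was also lower (-0.61, adjusted p 0.0439), with a call lost under 10 of 19 alternatives, 9 of which left out a single library (adjusted p up to 0.0948).

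Among 25 tested genes of the list of VLDL assembly and export, 2 were higher and 4 lower. Ces1d, a carboxylesterase that mobilises stored triglyceride for VLDL, went from 1429 ± 261 CPM to 541 ± 292 CPM (log2 fold change -1.40, adjusted p 0.00335). Ces1g (-0.68, adjusted p 0.00974), another carboxylesterase, and Aadac (-0.59, adjusted p 0.0193), a lipase-like esterase, were lower as well. Sar1b, the GTPase that drives the export of large particles from the endoplasmic reticulum, was lower by the main test (-0.37, adjusted p 0.0322), with the call lost when any of 8 single libraries was left out (adjusted p up to 0.0729). Tm6sf2, which promotes the lipidation of VLDL, was higher (0.39, adjusted p 0.0173). The other higher gene, Acat2 (0.73, adjusted p 0.0143), is counted in the list but is a thiolase of the sterol pathway and no acyltransferase of sterols.

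Among 15 tested genes of lipoprotein lipase regulation and remnant uptake, 5 passed, all of them higher. Lpl, the lipase on which Apoc2, Apoc3 and Apoa5 act, went from 12.9 ± 1.87 CPM to 36.2 ± 21.3 CPM (log2 fold change 1.49, adjusted p 0.00587), with separate groups. Sorl1 (1.18, adjusted p 0.00101), a sorting receptor, Gpihbp1 (0.55, adjusted p 0.00384), the endothelial anchor of the lipase, and Vldlr (1.24, adjusted p 0.0142), a receptor for triglyceride-rich particles, were higher as well. Lpl is expressed by macrophages as well as by other cells, and the part of the macrophage markers in its rise was not tested.

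Among 11 genes of HDL assembly and remodelling, Abcg1, a cholesterol exporter, was higher (0.65, adjusted p 0.0130) and Pon3, an HDL-bound lactonase, was lower at the edge of the threshold (-0.32, adjusted p 0.0499), with the call lost under 12 of 19 alternatives (adjusted p up to 0.111). Among 34 transcription factors and cofactors that act on apolipoprotein genes, 1 passed. It was Pparg, higher by 0.67 on the log2 scale (10.6 ± 2.85 CPM and 16.9 ± 2.60 CPM, adjusted p 0.0127). Creb3l3, a liver factor that activates Apoa4, did not pass (552 ± 95.8 CPM and 495 ± 127 CPM, log2 fold change -0.16, adjusted p 0.564), nor did Hnf4a, a general activator of the family (-0.37, adjusted p 0.148). Among 5 genes of the Apob messenger RNA editing machinery, Apobec1, the cytidine deaminase that creates the short form of the protein, was higher (15.1 ± 1.57 CPM and 23.7 ± 3.12 CPM, log2 fold change 0.65, adjusted p 0.00136) with separate groups. Editing itself cannot be read from gene counts.

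**Figure D5:**
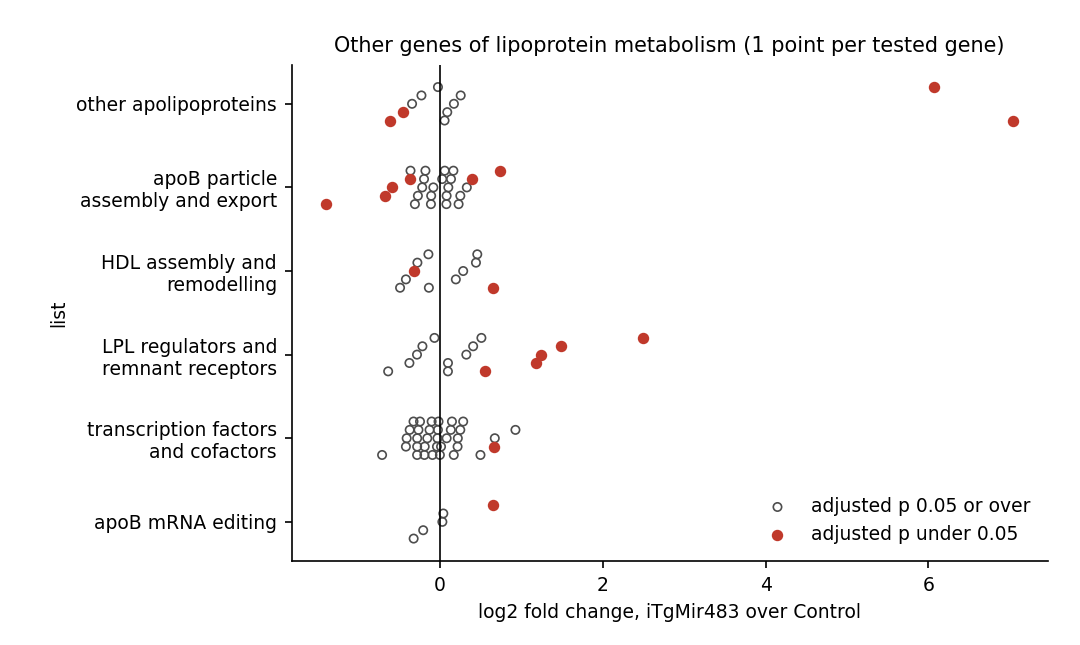
Log2 fold change of each tested gene of the 6 lists, 1 point per gene, filled red where the edgeR adjusted p was under 0.05. Saa1 (6.07) and Saa2 (7.04) stand far to the right, and 33 of the 34 points of the transcription factors and cofactors are open.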

How the data were processed

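Liver RNA libraries of 6 iTgMir483 and 6 Control mice were analysed, grouped and numbered by the sample titles. The deposited table holds unnormalized read counts for each gene, which the authors made from stranded poly(A) libraries by aligning paired reads to GRCm38 with STAR (named in the submitters' processing notes) and counting over Ensembl genes. The strand column and the handling of reads in overlapping genes are not given in the sources used here. No row lacked a gene name. Symbols, positions, exon lengths and 3′ UTRs came from GENCODE M21 (GRCm38), and 260 of 55401 identifiers had no symbol.

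Counts were fitted in R 4.3.3 with edgeR 4.0.16 (filterByExpr, TMM, glmQLFit and glmQLFTest) on all 13205 genes tested, without covariates, and p-values were adjusted by Benjamini-Hochberg. A gene passed at an adjusted p under 0.05 and was changed with a fold over 1.5 as well. CPM are counts scaled to a common library size with TMM factors, and log2 CPM used a prior count of 2. The steps were tested on simulated counts. Alternatives were other size factors, no filter or a stricter one, DESeq2 1.42.0, limma-voom (limma 3.58.1), a replicate term, a test against a fold of 1.5, and each library left out.

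The members, the 6 lists and the tests were chosen with earlier results of these data known. Named genes were Mir483, the members, up to 4 passing genes of each list in each direction (mean CPM of at least 1) by smallest p, the gene most like each member, passing neighbours, and genes that missed the threshold where the text turns on them. Vldlr and the Apoc4 and Gm genes were named after their values were seen. Library totals were 12244123 to 30431286 counts, so counting error is small for all members but Apoc2. All libraries carry 1 pool label, and no batch was given. The values of 1 passing gene of the lists are not reported here.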

Additional observations from a re-analysis of the deposited data

Results flagged for a closer look

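In each group of 6, the library at either end was compared with its nearest neighbour as a share of the group's range, for the CPM of the 10 members, the 5 count ratios and the members' summed share. Of 32 groups, 5 held a value past Dixon's 95% limit for 6 values. For independent groups of normally distributed values about 1 in 20 would, or 1.6 groups. These groups share libraries and counts, so the 2 numbers do not make a test against chance. Apoa1 in iTgMir483 replicate 1 was at 3102 CPM, with the next library at 10387 CPM (ratio 0.671). In the same library the log2 ratio of Apoa5 to Apoc3 counts was -0.39, with the next at 0.51 (ratio 0.655). Apob in iTgMir483 replicate 2 was at 3460 CPM, with the next at 6015 CPM (ratio 0.796). Mttp in Control replicate 1 was at 411 CPM, with the next at 509 CPM (ratio 0.752). In that library the log2 ratio of Apoe to Apoc1 was 2.11, with the next at 2.32 (ratio 0.659). Of the 5 values, 2 each came from the replicate 1 libraries of both groups, and no Apoa4 value was among them. Their causes were not tested.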

How the results depend on the processing

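Apoa4 passed in all 19 alternatives that test for any difference, with a log2 fold change of 1.87 to 2.53 and adjusted p of 0.00363 to 0.0373 when single libraries were left out. Against a fold of 1.5, 0 members and 226 genes were changed, where the fold threshold on the estimate gave 1 and 1470. DESeq2 added Apoc2 (log2 fold change -0.45), so 1 member was lower. Apoa5 changed sign without both replicate 1 libraries (0.037) and ran from -0.11 to 0.066 when single libraries were left out, and Mttp from -0.15 to 0.053, and neither passed. The other 6 members kept their direction and did not pass in any alternative. The members' mean share of raw counts was higher in iTgMir483 than in Control libraries by 0.692 percentage points. With the 10 most abundant other genes taken out of the total, the difference was 0.679. These shares use no TMM factors and include Apoa4. By the fit, 6 of the 10 members had a log2 fold change below 0. The number of all genes past the threshold was 1742 to 2663 without single libraries.

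For the lists, counts past the threshold moved as follows, and the causes were not tested. Among other apolipoproteins the higher genes fell from 2 to 0 with limma-voom and the lower ones from 2 to 1 without the filter, and were 1 to 3 without single libraries. Among HDL genes the lower count of 1 became 0 with either other filter, 2 with DESeq2, and 0 to 2 without single libraries. The higher count became 2 without both replicate 1 libraries and was 1 to 2 without single libraries. Among genes of lipase regulation and remnant uptake the lower count of 0 became 1 without both replicate 1 libraries and was 0 to 2 without single ones. Among transcription factors the higher count of 1 became 2 without both replicate 1 libraries and was 1 to 2 without single ones. The lower count of 0 became 2 with DESeq2 and 1 with limma-voom, and was 0 to 3 without single libraries. Without single libraries, the VLDL list had 2 to 4 higher genes and the editing list 0 to 1 lower genes.

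The replicate numbers were not taken to pair the animals, since the labels do not say that they do. Deviations of equally numbered libraries correlated at 0.034 to 0.440, highest for replicate 1, and 2 of 6 pairs were over 0.1. Unequally numbered libraries were not compared, so these values cannot decide whether the numbers pair animals. With the replicate block, Apoa4 had a log2 fold change of 2.07 (edgeR adjusted p 7.04e-05), 1 member was called as before, and 2519 genes passed. In that fit Saa1 and Saa2 had log2 fold changes of 2.20 and 2.48 (adjusted p 0.224 and 0.260), so 0 other apolipoproteins were higher, 2 HDL genes lower, 1 gene of the lipase list lower, and 2 transcription factors higher and 1 lower. Depth limits the reading of Apoc2 alone among the members, at 41 to 180 counts.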
